A study of Mus musculus with 15 samples.

Results

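Translation initiation factors were followed here as the genes whose symbol begins with Eif and a digit, in mouse T helper 2 (Th2) cells. The gene tables held 85 such rows. Leaving out 10 pseudogenes and 2 rows for copies of the eIF2 gamma subunit gave 73 members of 56748 genes. The members were matched by name and not by a measured value, although the set was chosen with earlier results of these data known. Of these, 51 had enough counts to be tested and 22 did not. The name also takes in genes that regulate initiation and are not factors themselves, such as the eIF2 alpha kinases and the eIF4E-binding proteins, and Eif4a3, a helicase of the exon junction complex.

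Initiation begins when eIF2, loaded with GTP and the initiator tRNA, joins the small ribosomal subunit together with eIF1, eIF1A, eIF3 and eIF5. The cap-binding protein eIF4E, the scaffold eIF4G and the helicase eIF4A bring the mRNA, and eIF4E-binding proteins (4E-BPs) compete with the scaffold for eIF4E. eIF2B recharges eIF2 with GTP, and kinases that phosphorylate the alpha subunit of eIF2 block that step. T cells leaving rest are known for a large increase in protein synthesis.

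Naive CD4+ T cells from spleens of female mice were polarised to Th2 cells for 3 days and expanded for 3 days. Stimulated cells received coated anti-CD3ε at 3 µg/ml with soluble anti-CD28 at 2 µg/ml for 24 h from day 5. The cKO cells had the genotype VEC-Cre;Asb2fl/fl, in which Cre is driven by the VE-cadherin promoter, and the control cells were Asb2fl/fl, so both genotypes carried the floxed alleles. There were 4 stimulated cKO, 5 stimulated control, 3 non-stimulated cKO and 3 non-stimulated control libraries. No label ties a library to an animal. The tests below therefore weigh differences against the spread between libraries, part of which may be technical.

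Total counts ran from 17083680 to 24185331 per library. Asb2, which encodes a substrate receptor of a ubiquitin ligase, was lower in cKO than in control stimulated cells (-1.82 ± 0.18 on the log2 scale, edgeR adjusted p = 0.000337) and had a log2 fold change of -0.94 ± 0.21 in non-stimulated cells (edgeR unadjusted p = 0.000326, adjusted p = 1.00). The non-stimulated libraries did not overlap, with 12.7 to 22.7 CPM of Asb2 in cKO cells, against 25.6 to 49.7 CPM in control cells. The 7 CD4 T and Th2 cell markers summed to 3450 to 4425 CPM (counts scaled to library size) in the stimulated libraries, against 2291 to 2697 CPM in the non-stimulated ones. Of these 7, the cytokine genes Il4 and Il13 rose and Cd3e, Cd3g and Cd28 fell in each genotype, and without the cytokine genes the other 5 summed to 1819 to 2206 CPM in stimulated libraries, against 2269 to 2660 CPM in non-stimulated ones. Both CD8 T cell markers had enough counts to be tested and summed to at most 28.8 CPM in any library. Of 4 B cell markers 3 were tested, and that list summed to at most 4.07 CPM. All 3 erythroid markers were at 0. The NK list, with 1 of 3 markers tested, summed to at most 2.03 CPM in stimulated libraries, against 3.10 to 18.2 CPM in non-stimulated ones. The myeloid list had 1 of 4 markers tested and Lyz2 at 0 throughout. It stood at up to 0.780 CPM in stimulated libraries, against 1.23 to 4.34 CPM in non-stimulated ones. In the endothelial list Pecam1 alone of 3 had enough counts to be tested. The list stood at 44.3 to 77.1 CPM in stimulated libraries, against 165 to 197 CPM in non-stimulated ones. Nearly all of this was Pecam1, as Cdh5 had at most 0.181 CPM and Kdr at most 0.0577 CPM in any library. These lists moved with stimulation, and their part in the results on the initiation factors was not tested. Mitochondrially encoded genes took 9.43% of counts in stimulated cKO library 3 and 4.36% to 6.24% in the other 14.

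Stimulation raised most of the tested initiation factor genes in both genotypes. In cKO cells 37 of 51 rose and 4 fell, where 26.7% of all 15619 genes tested rose and 27.1% fell. In control cells 33 of 51 rose and 4 fell, where 25.4% of all genes rose and 25.2% fell. A gene counted as risen or fallen at an adjusted p under 0.05 in edgeR's quasi-likelihood test. Log2 fold changes of single genes are given as ± SE, a standard error worked back from the change and the statistic of that test. The median log2 fold change of the members was 0.49 in cKO cells and 0.39 in control cells, beside -0.01 and 0.00 over all genes. Without stimulated cKO library 3 the members' counts were 37 up and 4 down in cKO cells and 36 up and 4 down in control cells.

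The same direction appears in the library values themselves. In cKO cells 37 members were higher in every stimulated than in every non-stimulated library and 4 were lower, against 26.8% and 27.2% of all genes. In control cells 29 were higher in every stimulated library and 4 lower, against 23.8% and 24.2% of all genes. The members together took 1.11% to 1.28% of counts in stimulated libraries, against 0.856% to 0.958% in non-stimulated ones. In TPM, the relative abundance of transcripts once length is taken into account, they summed to 6284 to 8556 in stimulated libraries, against 4983 to 5370 in non-stimulated ones. In bulk RNA, fewer cells of a type and less RNA per cell cannot be told apart, and every level here is relative to the rest of the library. With limma on log2(TPM + 1), all genes in cKO cells shifted by a median of -0.06 on the log2 scale and split into 2526 higher and 3488 lower, beside 4171 and 4226 in edgeR. In control cells that scale shifted them the other way, by a median of 0.11, and split them into 3706 higher and 2117 lower, beside 3961 and 3936 in edgeR.

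**Figure D1:**
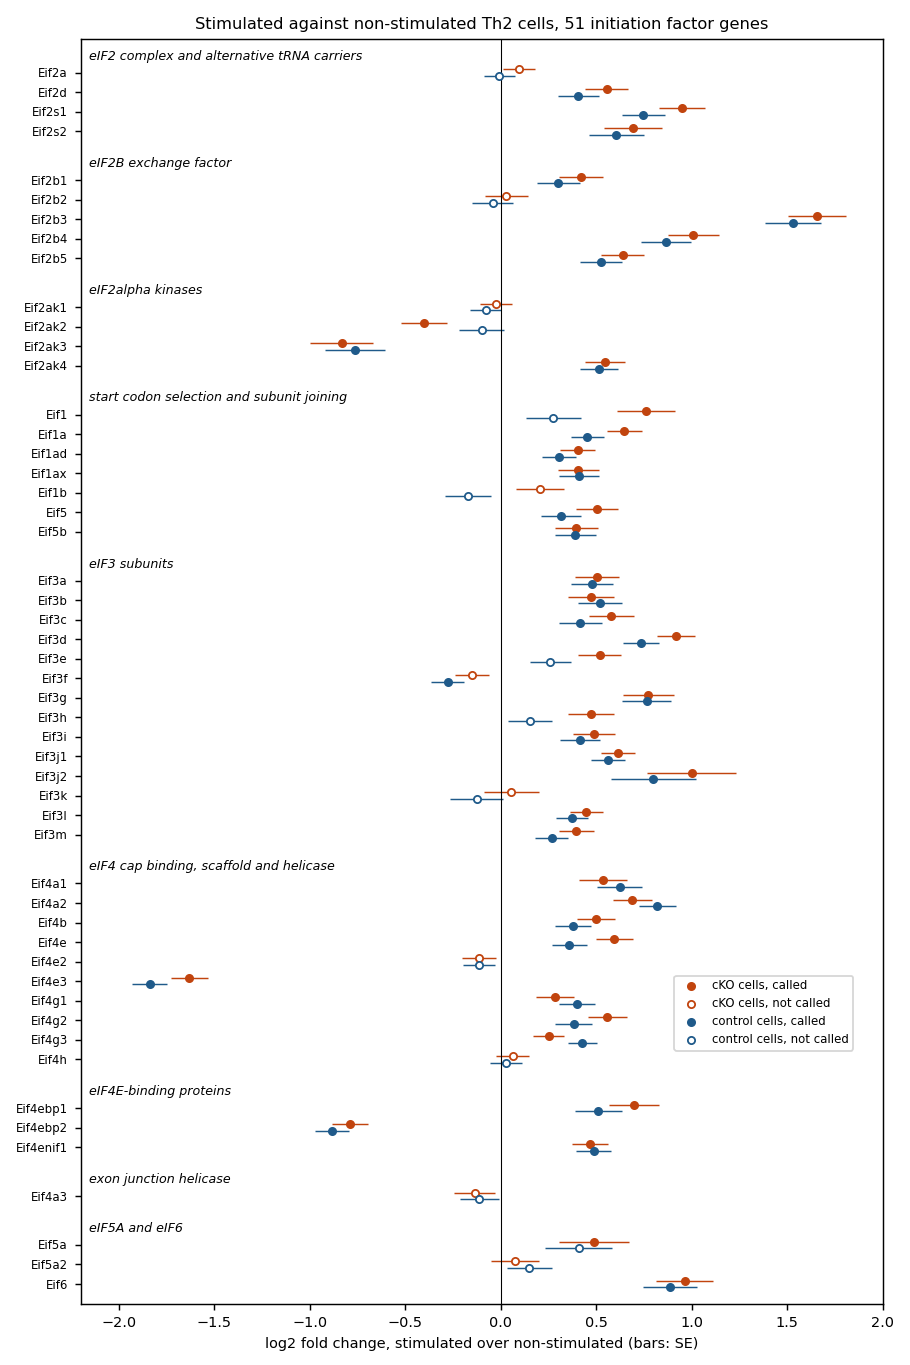
Log2 fold change of stimulated over non-stimulated cells (x axis) for the 51 tested genes, grouped by role, in cKO cells (upper point of each pair) and control cells (lower point). Bars are standard errors, filled points passed an adjusted p under 0.05. Most points lie right of 0, with Eif2b3 farthest right and Eif4e3 farthest left.

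Of the genes of eIF2 and the alternative tRNA carriers, 3 of 4 rose in each genotype. Eif2s1, which encodes the alpha subunit that the stress kinases phosphorylate, had 223, 230.2, 273 and 223 CPM in stimulated cKO cells, against 122, 131 and 115 CPM in non-stimulated cKO cells, and 254, 228, 211, 205 and 221 CPM in stimulated control cells, against 145, 106 and 149.7 CPM in non-stimulated control cells. All stimulated libraries were above all non-stimulated ones. Its log2 fold change was 0.95 ± 0.12 in cKO cells (edgeR adjusted p = 3.38e-06) and 0.75 ± 0.11 in control cells (edgeR adjusted p = 3.02e-05). Eif2s2, the beta subunit gene, had 422, 424, 648 and 424 CPM in stimulated cKO cells, against 308, 294 and 289 CPM in non-stimulated cKO cells, and 506, 432, 504, 418 and 447 CPM in stimulated control cells, against 371, 257 and 283 CPM in non-stimulated control cells. It was higher in every stimulated library, and stimulated cKO library 3 stood well above the other 3 of its group. Its log2 fold change was 0.69 ± 0.15 in cKO cells (edgeR adjusted p = 0.000842) and 0.60 ± 0.14 in control cells (edgeR adjusted p = 0.00196).

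Eif2d, whose product can deliver tRNA to the ribosome without GTP, had 66.3, 60.4, 57.2 and 60.1 CPM in stimulated cKO cells, against 42.4, 42.4 and 39.9 CPM in non-stimulated cKO cells, and 59.5, 67.1, 56.8, 48.97 and 51.9 CPM in stimulated control cells, against 41.1, 38.2 and 49.3 CPM in non-stimulated control cells. The groups were apart in cKO cells and overlapped in control cells, where the lowest stimulated library lay just under the highest non-stimulated one. Its log2 fold change was 0.55 ± 0.11 in cKO cells (edgeR adjusted p = 0.000410) and 0.41 ± 0.11 in control cells (edgeR adjusted p = 0.00380). Eif2a, which encodes another tRNA-binding protein, was between 101.6 and 124.6 CPM in all 15 libraries and was not called in either genotype.

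The exchange factor eIF2B held the largest rise among the members. Of its 5 subunit genes 4 rose in each genotype. Eif2b3, the gamma subunit gene, had 40.3, 46.01, 50.8 and 43.8 CPM in stimulated cKO cells, against 13.3, 17.04 and 12.7 CPM in non-stimulated cKO cells, and 54.9, 43.6, 41.3, 43.96 and 42.5 CPM in stimulated control cells, against 18.6, 11.8 and 16.6 CPM in non-stimulated control cells. The lowest stimulated library of each genotype lay far above the highest non-stimulated one. The log2 fold change was 1.65 ± 0.15 in cKO cells (edgeR adjusted p = 1.04e-07) and 1.53 ± 0.15 in control cells (edgeR adjusted p = 1.58e-07).

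Eif2b4, the delta subunit gene, had 25.6, 22.4, 24.2 and 26.1 CPM in stimulated cKO cells, against 13.5, 11.2 and 11.9 CPM in non-stimulated cKO cells, and 31.1, 25.6, 27.4, 21.005 and 21.1 CPM in stimulated control cells, against 12.996, 13.6 and 14.96 CPM in non-stimulated control cells. Again the stimulated and non-stimulated libraries did not overlap. On the log2 scale its change was 1.01 ± 0.14 in cKO cells (edgeR adjusted p = 7.47e-06) and 0.87 ± 0.13 in control cells (edgeR adjusted p = 2.44e-05). Eif2b5 encodes the epsilon subunit, which carries the exchange activity, and had 59.99, 60.1, 58.9 and 59.7 CPM in stimulated cKO cells, against 34.998, 37.2 and 42.8 CPM in non-stimulated cKO cells, and 63.7, 62.2, 63.1, 55.4 and 49.9 CPM in stimulated control cells, against 46.9, 33.8 and 42.2 CPM in non-stimulated control cells. Its groups were also apart, with a log2 fold change of 0.64 ± 0.11 in cKO cells (edgeR adjusted p = 0.000150) and 0.52 ± 0.11 in control cells (edgeR adjusted p = 0.000655).

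The other eIF2B genes moved less. Eif2b1, the alpha subunit gene, changed by 0.42 ± 0.12 in cKO cells (edgeR adjusted p = 0.00547) and 0.30 ± 0.11 in control cells (edgeR adjusted p = 0.0307). In control cells that call was lost without any of 4 libraries, with values of 0.26 (edgeR adjusted p = 0.0585) and 0.29 (edgeR adjusted p = 0.0509) without stimulated libraries 1 and 2, and 0.33 (edgeR adjusted p = 0.0510) and 0.19 (edgeR adjusted p = 0.196) without non-stimulated libraries 1 and 2. Eif2b2, the beta subunit gene, was not called, with log2 fold changes of 0.03 ± 0.11 in cKO and -0.04 ± 0.11 in control cells. Per length, Eif2b2 had the highest level of the 5 genes in both conditions, at 37.4 TPM in stimulated cKO and 44.3 TPM in stimulated control cells, against 43.2 TPM in non-stimulated cKO and 39.9 TPM in non-stimulated control cells.

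The 4 eIF2 alpha kinase genes went different ways. Eif2ak4 encodes GCN2, which senses uncharged tRNA, and had 40.3, 38.7, 34.2 and 40.4 CPM in stimulated cKO cells, against 29.8, 26.4 and 22.8 CPM in non-stimulated cKO cells, and 42.5, 39.5, 42.3, 42.5 and 36.1 CPM in stimulated control cells, against 26.8, 29.4 and 29.05 CPM in non-stimulated control cells. Every stimulated library was above every non-stimulated one, with a log2 fold change of 0.55 ± 0.10 in cKO cells (edgeR adjusted p = 0.000237) and 0.51 ± 0.10 in control cells (edgeR adjusted p = 0.000296). On the log2(TPM + 1) scale the cKO value was 0.32 (limma adjusted p = 0.189). Eif2ak3, which encodes PERK, the kinase of the endoplasmic reticulum stress response, fell in both genotypes. It had 28.5, 29.7, 31.2 and 26.4 CPM in stimulated cKO cells, against 39.5, 50.6 and 64.6 CPM in non-stimulated cKO cells, and 24.8, 30.8, 25.7, 29.6 and 31.1 CPM in stimulated control cells, against 35.4, 49.01 and 60.001 CPM in non-stimulated control cells. The non-stimulated libraries were widely spread and all lay above the stimulated ones, with a log2 fold change of -0.83 ± 0.16 in cKO cells (edgeR adjusted p = 0.000394) and -0.76 ± 0.16 in control cells (edgeR adjusted p = 0.000569).

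Eif2ak2 encodes PKR, which is activated by double-stranded RNA, and had 64.8, 66.6, 61.5 and 55.5 CPM in stimulated cKO cells, against 93.4, 71.1 and 81.7 CPM in non-stimulated cKO cells, and 61.8, 60.9, 63.2, 84.1 and 64.8 CPM in stimulated control cells, against 73.4, 78.3 and 63.8 CPM in non-stimulated control cells. Its cKO groups were apart and its control groups overlapped, with stimulated control library 4 the highest of its group. The log2 fold change was -0.40 ± 0.12 in cKO cells (edgeR adjusted p = 0.00931) and -0.10 ± 0.12 in control cells (edgeR adjusted p = 0.496), and the cKO call was lost without non-stimulated cKO library 1, at -0.30 (edgeR adjusted p = 0.0747). Eif2ak1 encodes HRI, a kinase regulated by heme, and was not called, with log2 fold changes of -0.03 ± 0.08 in cKO and -0.08 ± 0.08 in control cells.

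**Figure D2:**
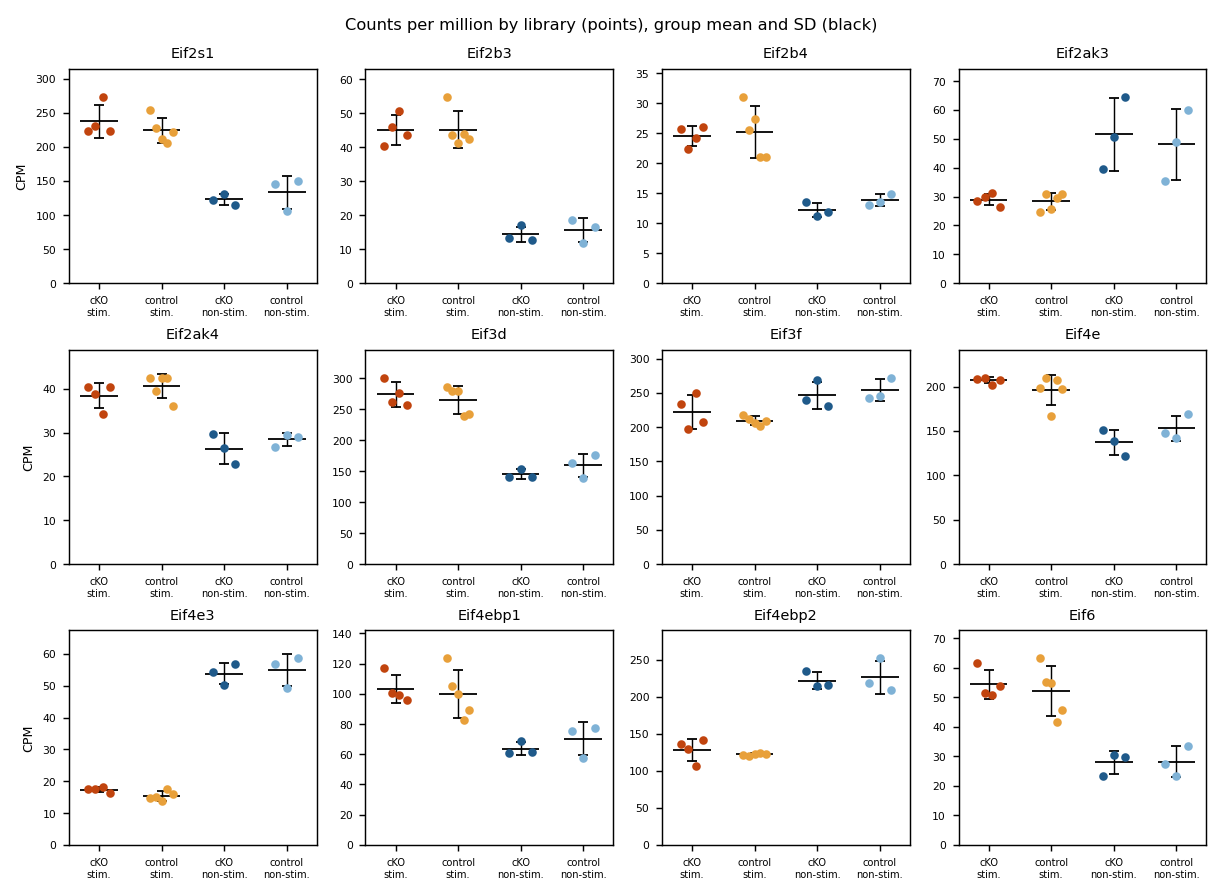
CPM of 12 members (y axes from 0) in each library (points) of the stimulated cKO, stimulated control, non-stimulated cKO and non-stimulated control groups, with group mean and SD in black. Eif2b3 and Eif6 are higher in every stimulated library, Eif4e3, Eif4ebp2 and Eif2ak3 are lower in every one, and the 2 genotypes overlap within each condition in every panel.

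Among the 7 tested genes of start codon selection and subunit joining, 6 rose in cKO cells and 5 in control cells. Eif1a, one of the genes for eIF1A, which helps the ribosome scan, had 175, 179, 194 and 175 CPM in stimulated cKO cells, against 122, 112 and 112 CPM in non-stimulated cKO cells, and 178, 188, 169, 164 and 161 CPM in stimulated control cells, against 135, 107 and 135 CPM in non-stimulated control cells. The groups did not overlap in either genotype, and the log2 fold change was 0.65 ± 0.09 in cKO cells (edgeR adjusted p = 1.42e-05) and 0.45 ± 0.09 in control cells (edgeR adjusted p = 0.000337). Its X-linked paralog Eif1ax had 112, 103, 115 and 106 CPM in stimulated cKO cells, against 83.1, 71.4 and 91.7 CPM in non-stimulated cKO cells, and 120.0, 107, 111, 95.4 and 94.9 CPM in stimulated control cells, against 85.6, 69.5 and 83.6 CPM in non-stimulated control cells. The log2 fold change of this gene was 0.41 ± 0.11 in cKO cells (edgeR adjusted p = 0.00387) and 0.41 ± 0.10 in control cells (edgeR adjusted p = 0.00298), but on the log2(TPM + 1) scale the cKO value turned to -0.14 (limma adjusted p = 0.645) and the control value was 0.42 (limma adjusted p = 0.112).

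Eif1, whose product guards the choice of start codon, was the member with the highest level per length, at 1802 ± 426 TPM in stimulated cKO and 1614 ± 389.9 TPM in stimulated control cells, against 995 ± 68.9 TPM in non-stimulated cKO and 1131 ± 93.4 TPM in non-stimulated control cells (SD, n = 4, 5, 3 and 3). On the count scale it had 554, 648, 952 and 701 CPM in stimulated cKO cells, against 384, 444 and 433 CPM in non-stimulated cKO cells, and 566, 622, 540.4, 590.0 and 743 CPM in stimulated control cells, against 491, 459.8 and 566 CPM in non-stimulated control cells. The groups were apart in cKO cells and overlapped in control cells, and stimulated cKO library 3 was the highest of all. The change was, on the log2 scale, 0.76 ± 0.15 in cKO cells (edgeR adjusted p = 0.000405) and 0.28 ± 0.14 in control cells (edgeR adjusted p = 0.121). Without stimulated cKO library 3 the control value passed the threshold, at 0.28 (edgeR adjusted p = 0.0444), as it did on the log2(TPM + 1) scale, at 0.48 (limma adjusted p = 0.0458). Its paralog Eif1b had 27.7, 23.6, 32.7 and 28.8 CPM in stimulated cKO cells, against 23.3, 23.7 and 26.2 CPM in non-stimulated cKO cells, and 24.4, 25.9, 25.3, 18.8 and 27.7 CPM in stimulated control cells, against 25.5, 27.5 and 29.6 CPM in non-stimulated control cells. Those groups overlapped in both genotypes, with log2 fold changes of 0.20 ± 0.13 in cKO and -0.17 ± 0.12 in control cells that were not called.

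Eif5 encodes the protein that triggers GTP hydrolysis by eIF2, and had 376, 412, 463 and 415 CPM in stimulated cKO cells, against 271, 316 and 294 CPM in non-stimulated cKO cells, and 427, 421, 369.6, 411 and 416 CPM in stimulated control cells, against 344, 268 and 373 CPM in non-stimulated control cells. Its groups were apart in cKO cells and overlapped by 1 library in control cells. The log2 fold change was 0.50 ± 0.11 in cKO cells (edgeR adjusted p = 0.000780) and 0.32 ± 0.10 in control cells (edgeR adjusted p = 0.0167), and the control call was lost without non-stimulated control library 2, at 0.19 (edgeR adjusted p = 0.138). Eif5b encodes the GTPase that joins the large subunit and changed by 0.40 ± 0.11 in cKO cells (edgeR adjusted p = 0.00665) and 0.39 ± 0.11 in control cells (edgeR adjusted p = 0.00592). Eif1ad, an eIF1A-related gene, changed by 0.40 ± 0.09 in cKO cells (edgeR adjusted p = 0.00153) and 0.30 ± 0.09 in control cells (edgeR adjusted p = 0.00896). On the log2(TPM + 1) scale the cKO values were 0.33 (limma adjusted p = 0.106) for Eif5b and 0.27 (limma adjusted p = 0.182) for Eif1ad.

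eIF3 is the largest initiation factor and the platform on which the others assemble on the small subunit. Of its 14 tested genes 12 rose and none fell in cKO cells, and 10 rose and 1 fell in control cells. The median log2 fold change over the 14 was 0.50 in cKO and 0.41 in control cells. Their summed level was 1723 to 2250 TPM in stimulated libraries, against 1419 to 1592 TPM in non-stimulated ones. Eif3d, whose product can bind the cap of some mRNAs, had 301, 261, 277 and 258 CPM in stimulated cKO cells, against 141, 154 and 141 CPM in non-stimulated cKO cells, and 287, 279, 279, 239.8 and 242 CPM in stimulated control cells, against 163, 139 and 176 CPM in non-stimulated control cells. The lowest stimulated library of each genotype was well above the highest non-stimulated one, and the log2 fold change was 0.91 ± 0.10 in cKO cells (edgeR adjusted p = 6.93e-07) and 0.74 ± 0.10 in control cells (edgeR adjusted p = 5.22e-06).

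Eif3g, a gene for an RNA-binding subunit, had 103, 88.5, 104 and 80.5 CPM in stimulated cKO cells, against 50.5, 57.97 and 56.4 CPM in non-stimulated cKO cells, and 111, 89.4, 112, 78.3 and 82.3 CPM in stimulated control cells, against 59.2, 49.3 and 58.9 CPM in non-stimulated control cells. Its groups did not overlap, with a log2 fold change of 0.77 ± 0.13 in cKO cells (edgeR adjusted p = 0.000105) and 0.76 ± 0.13 in control cells (edgeR adjusted p = 8.57e-05). Eif3j1 encodes the loosely bound j subunit and had 136, 135, 137 and 138 CPM in stimulated cKO cells, against 89.9, 86.3 and 91.4 CPM in non-stimulated cKO cells, and 150.4, 144, 132, 129.6 and 123 CPM in stimulated control cells, against 94.8, 79.7 and 102 CPM in non-stimulated control cells. Stimulated libraries were again all higher, with a log2 fold change of 0.61 ± 0.09 in cKO cells (edgeR adjusted p = 2.25e-05) and 0.56 ± 0.09 in control cells (edgeR adjusted p = 3.93e-05). Its near-identical copy Eif3j2, for which the division of reads between the copies is uncertain, was at 8.65 to 16.9 CPM in stimulated libraries, against 4.93 to 8.24 CPM in non-stimulated ones.

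The core subunit genes Eif3a, Eif3b and Eif3c rose by 0.47 to 0.58 on the log2 scale in cKO cells and by 0.42 to 0.52 in control cells. Eif3i, Eif3l and Eif3m also rose in both genotypes, by 0.40 to 0.49 in cKO and 0.27 to 0.41 in control cells. On the log2(TPM + 1) scale these 3 were not called in cKO cells, with limma adjusted p of 0.0525, 0.0598 and 0.0934. The control call of Eif3m was lost without non-stimulated control library 2, at 0.20 (edgeR adjusted p = 0.0971). Eif3e was called in cKO cells alone, with log2 fold changes of 0.52 ± 0.11 in cKO cells (edgeR adjusted p = 0.000996) and 0.26 ± 0.11 in control cells (edgeR adjusted p = 0.0553), and its control value moved to 0.26 (edgeR adjusted p = 0.0109) without stimulated cKO library 3. Leaving out any one of stimulated cKO libraries 1, 2 and 4, stimulated control library 3 or non-stimulated control library 3 also brought that control value under the threshold, with edgeR adjusted p between 0.0282 and 0.0463. It also passed without the scaling of library sizes, at 0.26 (edgeR adjusted p = 0.0283), with only the groups compared in the fit, at 0.26 (edgeR adjusted p = 0.0341), and on the log2(TPM + 1) scale, at 0.40 (limma adjusted p = 0.0232). Eif3h was likewise called in cKO cells alone, with 0.47 ± 0.12 in cKO cells (edgeR adjusted p = 0.00291) and 0.15 ± 0.11 in control cells (edgeR adjusted p = 0.288).

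Eif3f and Eif3k were not called higher in either genotype. Eif3f encodes one of the MPN-domain subunits and had 234, 197, 250.1 and 207 CPM in stimulated cKO cells, against 239.5, 268 and 231 CPM in non-stimulated cKO cells, and 218, 212, 206, 201 and 208 CPM in stimulated control cells, against 243, 246 and 272 CPM in non-stimulated control cells. All 5 stimulated control libraries were below all 3 non-stimulated ones, and the cKO groups overlapped. Its change on the log2 scale was -0.15 ± 0.09 in cKO cells (edgeR adjusted p = 0.172) and -0.28 ± 0.09 in control cells (edgeR adjusted p = 0.0117). The control call was lost without non-stimulated control library 3, at -0.22 (edgeR adjusted p = 0.0684), and on the log2(TPM + 1) scale, at -0.12 (limma adjusted p = 0.479), while without the scaling of library sizes the cKO value passed, at -0.24 (edgeR adjusted p = 0.0244). Eif3k, a peripheral subunit gene, was not called, with log2 fold changes of 0.06 ± 0.14 in cKO and -0.13 ± 0.14 in control cells.

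**Figure D3:**
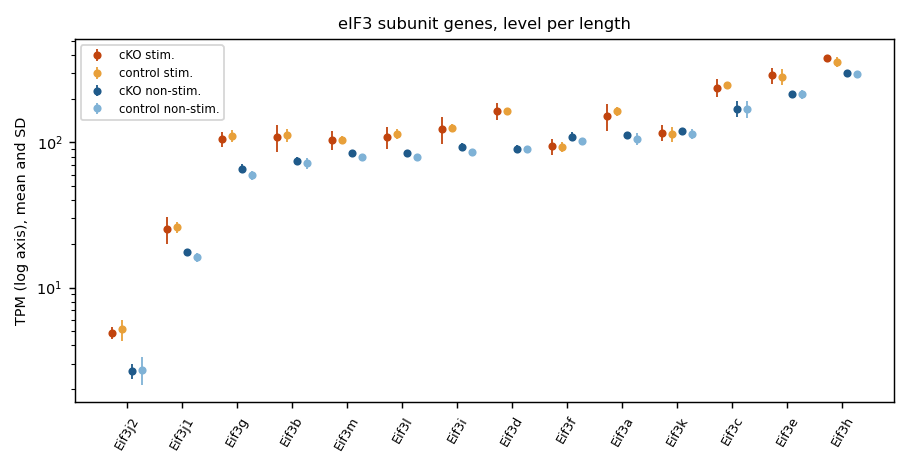
Level per length (TPM, log axis, mean and SD over libraries) of the 14 eIF3 subunit genes in stimulated cKO, stimulated control, non-stimulated cKO and non-stimulated control cells, ordered by their level in non-stimulated control cells. Eif3h is highest, Eif3j2 lowest, and Eif3f lies slightly lower in stimulated than in non-stimulated cells while most subunit genes lie higher.

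Within the eIF3 genes the level per length differed far more between genes than between conditions. Eif3h was highest, at 381 ± 13.8 TPM in stimulated cKO and 360.5 ± 27.2 TPM in stimulated control cells, against 299 ± 14.1 TPM in non-stimulated cKO and 297 ± 14.8 TPM in non-stimulated control cells (SD, n = 4, 5, 3 and 3). Eif3j1 was at 25.4 ± 5.26 and 26.1 ± 2.24 TPM in stimulated cKO and control cells, against 17.6 ± 0.911 and 16.2 ± 1.09 TPM in non-stimulated cKO and control cells. The other genes apart from Eif3j2 lay between these levels, with Eif3e and Eif3c next below Eif3h.

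Of the 10 tested genes of the cap-binding complex, its scaffold and its helicase, 7 rose and 1 fell in each genotype. The gene that fell was Eif4e3, a cap-binding paralog of eIF4E. It had 17.5, 17.5, 18.3 and 16.2 CPM in stimulated cKO cells, against 54.2, 50.4 and 56.8 CPM in non-stimulated cKO cells, and 14.7, 15.02, 13.6, 17.7 and 15.8 CPM in stimulated control cells, against 56.96, 49.4 and 58.6 CPM in non-stimulated control cells. Every stimulated library lay far below every non-stimulated one, and this was the largest fall among the members. This gave a log2 fold change of -1.63 ± 0.10 in cKO cells (edgeR adjusted p = 9.09e-10) and -1.84 ± 0.09 in control cells (edgeR adjusted p = 8.49e-11).

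Eif4e, the main cap-binding protein gene, had 208, 209.6, 202 and 208 CPM in stimulated cKO cells, against 151, 139 and 122 CPM in non-stimulated cKO cells, and 198, 210.1, 167, 208 and 197 CPM in stimulated control cells, against 148, 142 and 169 CPM in non-stimulated control cells. The cKO groups were apart and the control groups overlapped through stimulated library 3. The log2 fold change was 0.59 ± 0.10 in cKO cells (edgeR adjusted p = 5.34e-05) and 0.36 ± 0.09 in control cells (edgeR adjusted p = 0.00331), and on the log2(TPM + 1) scale the cKO value was 0.35 (limma adjusted p = 0.0621). Eif4e2 encodes 4EHP, a cap-binding protein that does not bind the scaffold, and had 78.2, 76.05, 90.2 and 76.5 CPM in stimulated cKO cells, against 85.4, 81.1 and 93.98 CPM in non-stimulated cKO cells, and 86.3, 76.8, 86.2, 81.1 and 76.7 CPM in stimulated control cells, against 93.1, 80.6 and 90.6 CPM in non-stimulated control cells. Its groups overlapped in both genotypes, with log2 fold changes of -0.11 ± 0.09 in cKO and -0.11 ± 0.09 in control cells that were not called.

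The helicase genes Eif4a1 and Eif4a2 rose in both genotypes. Eif4a2 had 294, 376, 281 and 348 CPM in stimulated cKO cells, against 209, 193 and 203 CPM in non-stimulated cKO cells, and 312, 356, 307, 349 and 333 CPM in stimulated control cells, against 182, 191 and 190.1 CPM in non-stimulated control cells. No stimulated library reached down to a non-stimulated one, and the log2 fold change was 0.69 ± 0.10 in cKO cells (edgeR adjusted p = 1.67e-05) and 0.82 ± 0.10 in control cells (edgeR adjusted p = 1.77e-06). Eif4a1 had 719.9, 589, 613 and 600.1 CPM in stimulated cKO cells, against 455, 385 and 465 CPM in non-stimulated cKO cells, and 722, 604, 722, 591 and 499.6 CPM in stimulated control cells, against 439, 392 and 393 CPM in non-stimulated control cells. Its groups were apart as well, with a log2 fold change of 0.53 ± 0.12 in cKO cells (edgeR adjusted p = 0.00141) and 0.62 ± 0.12 in control cells (edgeR adjusted p = 0.000298). Of the helicase cofactors, Eif4b rose by 0.50 in cKO and 0.38 in control cells on the log2 scale, and Eif4h was not called, at 0.06 ± 0.09 and 0.03 ± 0.08.

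Eif4g1, the main scaffold gene, had 590.4, 548, 478 and 547 CPM in stimulated cKO cells, against 441, 434 and 458 CPM in non-stimulated cKO cells, and 638, 549, 610.1, 526 and 497 CPM in stimulated control cells, against 422, 405 and 457 CPM in non-stimulated control cells. Its groups did not overlap, and the log2 fold change was 0.28 ± 0.10 in cKO cells (edgeR adjusted p = 0.0221) and 0.40 ± 0.10 in control cells (edgeR adjusted p = 0.00199). The cKO call was lost without stimulated cKO library 1, at 0.24 (edgeR adjusted p = 0.0601), without non-stimulated cKO library 1, at 0.28 (edgeR adjusted p = 0.0596), and without non-stimulated cKO library 2, at 0.27 (edgeR adjusted p = 0.0654). Its paralog Eif4g3 had 181, 187, 198 and 194 CPM in stimulated cKO cells, against 152, 164 and 164 CPM in non-stimulated cKO cells, and 211, 179, 214, 208 and 198 CPM in stimulated control cells, against 149.9, 144 and 158 CPM in non-stimulated control cells. Those groups did not overlap either, with a log2 fold change of 0.25 ± 0.08 in cKO cells (edgeR adjusted p = 0.0136) and 0.43 ± 0.08 in control cells (edgeR adjusted p = 0.000175) and 0.22 (edgeR adjusted p = 0.0667) in cKO cells without non-stimulated cKO library 1. Without the scaling of library sizes the cKO values were 0.21 (edgeR adjusted p = 0.122) for Eif4g1 and 0.17 (edgeR adjusted p = 0.104) for Eif4g3, and neither was called on the TPM scale. Eif4g2 encodes DAP5, a scaffold without the eIF4E-binding part, and changed by 0.56 ± 0.10 in cKO cells (edgeR adjusted p = 0.000180) and 0.38 ± 0.10 in control cells (edgeR adjusted p = 0.00326).

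The genes that restrain cap binding split. Eif4ebp1 encodes 4E-BP1, an inhibitor of eIF4E that is switched off by mTOR kinase, and had 117, 101, 99.01 and 96.1 CPM in stimulated cKO cells, against 60.6, 68.6 and 61.8 CPM in non-stimulated cKO cells, and 123, 105, 99.7, 82.5 and 89.5 CPM in stimulated control cells, against 75.7, 57.5 and 77.4 CPM in non-stimulated control cells. Stimulated libraries were all higher, with a log2 fold change of 0.70 ± 0.13 in cKO cells (edgeR adjusted p = 0.000225) and 0.51 ± 0.13 in control cells (edgeR adjusted p = 0.00236). Its paralog Eif4ebp2 fell in both genotypes. It had 136, 129.6, 107 and 141 CPM in stimulated cKO cells, against 235, 215 and 216 CPM in non-stimulated cKO cells, and 121, 121, 123, 125 and 123 CPM in stimulated control cells, against 218, 252 and 209 CPM in non-stimulated control cells. Every stimulated library was below every non-stimulated one, with a log2 fold change of -0.79 ± 0.09 in cKO cells (edgeR adjusted p = 1.82e-06) and -0.88 ± 0.09 in control cells (edgeR adjusted p = 2.51e-07).

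Eif4enif1 encodes 4E-T, which carries eIF4E into the nucleus and to processing bodies, and had 182, 188, 189.5 and 217 CPM in stimulated cKO cells, against 144, 136 and 140.2 CPM in non-stimulated cKO cells, and 232, 188, 187, 181 and 191 CPM in stimulated control cells, against 149, 129 and 142 CPM in non-stimulated control cells. All stimulated libraries were higher, and the log2 fold change was 0.47 ± 0.10 in cKO cells (edgeR adjusted p = 0.000484) and 0.49 ± 0.09 in control cells (edgeR adjusted p = 0.000258). On the log2(TPM + 1) scale its cKO value was 0.32 (limma adjusted p = 0.137). The third 4E-BP gene, Eif4ebp3, did not have enough counts to be tested.

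Per length, Eif4ebp2 made up 27.6% ± 4.21 of the summed TPM of Eif4ebp1 and Eif4ebp2 in stimulated cKO cells, against 54.3% ± 3.13 in non-stimulated cKO cells (SD, n = 4 and 3). In control cells its share was 26.9% ± 1.16 when stimulated, against 51.2% ± 7.37 when not (SD, n = 5 and 3). No stimulated library reached the share of any non-stimulated one in either genotype. The exact two-sided permutation test gave p = 0.0286 in cKO and p = 0.0179 in control cells, the smallest that these library numbers allow, and an adjusted p of 0.20 over 28 tests of 7 pairs in 4 comparisons. The 2 genes together had 1.37 ± 0.146 TPM per TPM of Eif4e in stimulated cKO and 1.33 ± 0.109 in stimulated control cells, against 1.64 ± 0.103 in non-stimulated cKO and 1.62 ± 0.188 in non-stimulated control cells. This ratio was not tested. Its cKO groups overlapped, at 1.22 to 1.57 when stimulated and 1.53 to 1.73 when not. Its control groups nearly met, at 1.17 to 1.470 when stimulated and 1.475 to 1.83 when not.

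The other paralog pairs shifted less. Eif4e2 made up 49.5% ± 3.399 of Eif4e2 and Eif4e in stimulated cKO cells, against 57.2% ± 4.31 in non-stimulated cKO cells, and 49.9% ± 2.50 in stimulated control cells, against 55.9% ± 1.05 in non-stimulated control cells. Eif1b made up 1.94% ± 0.477 of Eif1b and Eif1 in stimulated cKO cells, against 3.18% ± 0.249 in non-stimulated cKO cells, and 1.99% ± 0.416 in stimulated control cells, against 2.76% ± 0.0967 in non-stimulated control cells. Eif1a made up 61.7% ± 4.20 of Eif1a and Eif1ax in stimulated cKO cells, against 49.3% ± 8.02 in non-stimulated cKO cells, and 58.9% ± 4.64 in stimulated control cells, against 55.5% ± 0.809 in non-stimulated control cells. Non-stimulated cKO library 3 had the lowest share of Eif1a, 40.2%, and without it the difference in cKO cells was 7.79 percentage points, against 12.4 with all libraries. In control cells the difference was 5.20 percentage points without stimulated library 1, which had a share of 51.4%, against 3.33 with all libraries. In the exact permutation test the smallest p that the library numbers allow ran from 0.00794 to 0.10 between comparisons. No test could therefore pass alone after adjustment over 28 tests. None of the 28 tests was called after adjustment, and 4 reached the smallest p their library numbers allow. These were Eif4ebp2 and Eif1a in stimulated against non-stimulated cKO cells, Eif4ebp2 in stimulated against non-stimulated control cells, and Eif1b in non-stimulated cKO against control cells. The last had shares of 2.898% to 3.35% in the 3 cKO and 2.69% to 2.87% in the 3 control libraries (exact two-sided permutation p = 0.10, adjusted p = 0.311).

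**Figure D4:**
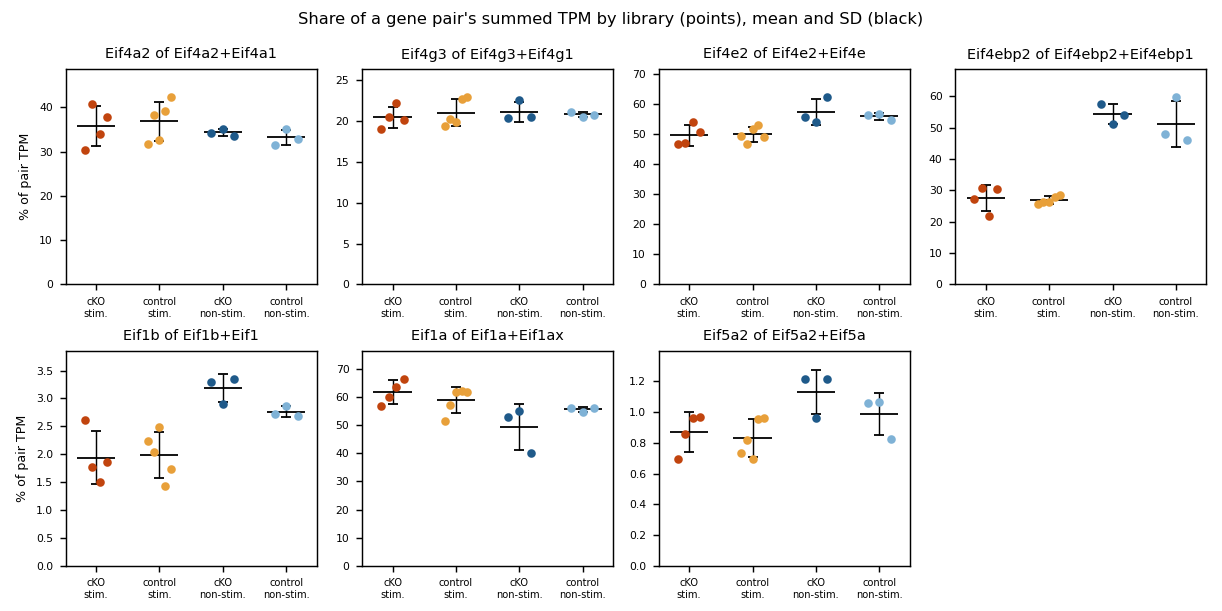
Share of 1 gene in the summed TPM of a paralog pair (percent, y axes from 0) in each library (points), with group mean and SD in black, in stimulated cKO, stimulated control, non-stimulated cKO and non-stimulated control cells. The share of Eif4ebp2 lies at 27.6% and 26.9% in stimulated cells, against 54.3% and 51.2% in non-stimulated cells of the cKO and control genotypes.

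Eif6 encodes a protein that keeps the large ribosomal subunit from joining too early and is also needed to make that subunit. It had 61.6, 51.3, 50.7 and 53.9 CPM in stimulated cKO cells, against 23.3, 30.5 and 29.9 CPM in non-stimulated cKO cells, and 63.2, 55.1, 54.8, 41.8 and 45.7 CPM in stimulated control cells, against 27.5, 23.3 and 33.6 CPM in non-stimulated control cells. All stimulated libraries were above all non-stimulated ones, with a log2 fold change of 0.96 ± 0.15 in cKO cells (edgeR adjusted p = 3.37e-05) and 0.89 ± 0.14 in control cells (edgeR adjusted p = 5.55e-05).

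Eif5a encodes the hypusine-bearing protein that helps ribosomes past difficult peptide bonds, and had 649, 475, 378 and 493 CPM in stimulated cKO cells, against 352, 362 and 351 CPM in non-stimulated cKO cells, and 654, 499, 533, 389 and 387 CPM in stimulated control cells, against 337, 346 and 429.9 CPM in non-stimulated control cells. Its libraries were widely spread in stimulated cells, and the control groups overlapped. The log2 fold change was 0.49 ± 0.18 in cKO cells (edgeR adjusted p = 0.0329) and 0.41 ± 0.18 in control cells (edgeR adjusted p = 0.0632). Leaving out a single library ended the cKO call, with log2 values of 0.34 (edgeR adjusted p = 0.111) without stimulated cKO library 1 and 0.49 (edgeR adjusted p = 0.0796), 0.51 (edgeR adjusted p = 0.0674) and 0.48 (edgeR adjusted p = 0.0819) without non-stimulated cKO libraries 1, 2 and 3. Leaving out stimulated cKO library 1 or 3, stimulated control library 4 or 5, or non-stimulated control library 3 brought the control value under the threshold, with edgeR adjusted p between 0.0298 and 0.0424. On the log2(TPM + 1) scale the calls changed places, with 0.37 (limma adjusted p = 0.175) in cKO and 0.52 (limma adjusted p = 0.0440) in control cells. The cKO call was also lost without the scaling of library sizes, at 0.41 (edgeR adjusted p = 0.0819), and without the filter on low counts, at 0.50 (edgeR adjusted p = 0.0775). Its paralog Eif5a2 had 20.7, 18.8, 16.4 and 22.03 CPM in stimulated cKO cells, against 19.8, 16.03 and 19.7 CPM in non-stimulated cKO cells, and 22.004, 18.8, 16.99, 17.2 and 17.1 CPM in stimulated control cells, against 16.5, 16.99 and 16.3 CPM in non-stimulated control cells. Those groups overlapped and were not called, at 0.07 ± 0.12 in cKO and 0.15 ± 0.12 in control cells. Eif4a3, of the exon junction complex, had 118, 98.2, 91.3 and 92.2 CPM in stimulated cKO cells, against 106, 110.0 and 114 CPM in non-stimulated cKO cells, and 107, 101, 107, 90.6 and 83.5 CPM in stimulated control cells, against 104, 97.6 and 116 CPM in non-stimulated control cells. It too overlapped between the conditions, with log2 fold changes of -0.14 ± 0.11 in cKO and -0.11 ± 0.10 in control cells.

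Of the 22 members not tested, 12 had 0 counts in every library, and the other 10 had at most 39 counts over all 15 libraries. They comprise 17 copies of a cluster related to Eif1ad, 7 of them with a count, together with Eif4e1b, Eif4ebp3, Eif4a3l1, Eif4a3l2 and Eif2c5.

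Genes that work beside these factors were counted in the same way, from lists chosen with earlier results of these data known, and each count stands beside the shares of all tested genes that rose and fell, 26.7% and 27.1% in cKO cells and 25.4% and 25.2% in control cells. Of 14 initiation helper genes, 8 rose and none fell in cKO cells, and 6 rose and 1 fell in control cells. Dhx29, a helicase that aids scanning, changed by 0.85 in cKO and 0.92 in control cells on the log2 scale. Denr, which acts in reinitiation, changed by 0.91 and 0.93 in cKO and control cells. The poly(A)-binding protein gene Pabpc4 rose by 0.88 and 0.77, and the helicase gene Ddx3x by 0.61 and 0.47. Of 10 regulators of the cap and the scaffold, 3 rose and 4 fell in cKO cells, and 4 rose and 4 fell in control cells, so that the share that rose in cKO cells was near that of all genes. Pdcd4, an inhibitor of eIF4A, fell in both, with log2 values of -1.31 ± 0.13 in cKO and -1.43 ± 0.12 in control cells. Cyfip1, whose product can hold eIF4E in a repressor complex, rose, at 0.95 and 0.88, while its paralog Cyfip2 fell, at -0.66 and -0.77. Gigyf1, a partner of 4EHP, also fell, at -0.96 and -0.53.

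The list of eIF2 stress response genes held regulators of eIF2 phosphorylation as well as genes that respond to it. It was led by Atf3, a stress-induced transcription factor gene, at 4.13 ± 0.40 in cKO and 3.10 ± 0.37 in control cells on the log2 scale. Ppp1r15a, which encodes GADD34, the subunit that directs a phosphatase to eIF2 alpha, rose by 1.90 and 1.51 in cKO and control cells. Gcn1, the gene for a GCN2 activator, rose by 0.57 and 0.66, and Chac1, which encodes a glutathione-degrading enzyme, by 0.74 and 0.56. In all, 5 of 10 genes on that list rose in each genotype and none fell. The CPM of Ddit3, Trib3, Atf5, Ppp1r15b and Impact overlapped between stimulated and non-stimulated libraries in each genotype. Of 10 elongation genes, 7 rose in cKO and 5 in control cells, led by Eef1e1 at 2.02 and 1.65. Eef1e1 encodes AIMP3, a scaffold of the tRNA synthetase complex. Eef2kmt, Eef1g and Dhps, the gene for an enzyme that modifies eIF5A, rose by 0.58 to 0.86 in cKO and 0.48 to 0.87 in control cells. Of 7 termination and recycling genes, 3 rose and 1 fell in cKO cells, and 4 rose and 1 fell in control cells. Gspt1, the gene for release factor eRF3A, rose by 0.94 and 0.79 in cKO and control cells, as did Etf1, the gene for eRF1, at 0.89 and 0.69, and the recycling factor gene Abce1, at 0.51 and 0.40. Hbs1l, a ribosome rescue gene, fell, at -0.57 and -0.61. Of 9 genes of mitochondrial translation factors, 7 rose in cKO and 6 in control cells and none fell, with the recycling factor gene Mrrf at 0.91 and 0.72. Mtif2, Tufm and Gfm2, further mitochondrial factor genes, rose by 0.42 to 0.81 in cKO and 0.59 to 0.71 in control cells.

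Promoter sequences were read for the members from RefSeq (build GRCm38.p6), from 250 bases before to 50 bases after each start, and 43 members had one. The E-box letters CACGTG, which read the same on both strands and are the element bound by Myc among others, were in 10 of 43 members (23.3%) and in 8.09% of 27025 genes. The letters CCGGAAG, a core bound by ETS factors, searched on both strands, were in 16 of 43 members (37.2%) and in 9.93% of genes. The longer C/EBP-ATF element TGATGCAA was in 0 of 43 and in 1.03% of genes. The E-box was in 4 of the 26 members with a promoter that rose in both genotypes and in 6 of the 15 other tested members with one. The ETS core was in 9 of those 26 and in 7 of those 15. A match describes the letters only. The shares of genes were taken over all genes with a promoter, tested here or not, and a gene counted if any of its starts matched. The share among the tested genes was not computed. The windows below show the E-box in capitals for Eif4e, Eif4a1 and Eif4g1, which rose, and for Eif4h, which was not called. In Eif4ebp2, which fell, the capitals mark the ETS core as read on the opposite strand. Each runs 5′ to 3′ along the gene.
Eif4e, chr3:138527157-138527256 on the plus strand: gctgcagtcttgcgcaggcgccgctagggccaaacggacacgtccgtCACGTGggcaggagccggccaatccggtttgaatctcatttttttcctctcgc
Eif4a1, chr11:69672560-69672659 on the minus strand: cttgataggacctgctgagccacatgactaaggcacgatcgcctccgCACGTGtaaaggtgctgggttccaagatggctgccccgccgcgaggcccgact
Eif4g1, chr16:20672626-20672725 on the plus strand: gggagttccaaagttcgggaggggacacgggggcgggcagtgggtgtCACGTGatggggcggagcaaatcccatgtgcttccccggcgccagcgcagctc
Eif4h, chr5:134639453-134639552 on the minus strand: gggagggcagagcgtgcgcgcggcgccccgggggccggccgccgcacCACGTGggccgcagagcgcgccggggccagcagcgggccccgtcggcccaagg
Eif4ebp2, chr10:61452741-61452840 on the minus strand: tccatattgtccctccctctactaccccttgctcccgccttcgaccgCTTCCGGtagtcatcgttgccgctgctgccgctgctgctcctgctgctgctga

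Counted from the start, the E-box lies at -64 in Eif4e, with a further one at -228 outside the window shown. It lies at -54 in Eif4g1, with a further one at 16, at -96 in Eif4h and at -189 in Eif4a1. The ETS core of Eif4ebp2 is at -124.

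No difference between the genotypes passed the test for any member. No member was called in cKO against control cells, either stimulated, where 0.0064% of all genes fell and 0% rose, or non-stimulated, where 0% of genes were called. None had an unadjusted p under 0.05 in edgeR in either comparison, beside 1.81% of all genes in stimulated and 2.57% in non-stimulated cells. That 0 depended on the fit. Without non-stimulated control library 2, 5 members had such a p in non-stimulated cells. With the replicate number as a block, 2 members did in stimulated cells. The shares of all genes in those fits were not computed. DESeq2 also called 0 members in both. In stimulated cells no member had cKO libraries all above or all below the control ones, as 0.307% and 0.352% of all genes did. Log2 differences lay between -0.11 and 0.22 in stimulated cells and between -0.27 and 0.19 in non-stimulated cells, with median standard errors of 0.10 and 0.12. Their median was 0.03 in stimulated and -0.05 in non-stimulated cells. Both signs turned on the log2(TPM + 1) scale, to -0.05 and 0.10, beside -0.05 and 0.12 over all genes on that scale.

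The smallest unadjusted p in stimulated cells was that of Eif4e3, at 0.0636, with 17.5, 17.5, 18.3 and 16.2 CPM in cKO and 14.7, 15.02, 13.6, 17.7 and 15.8 CPM in control cells. The libraries overlapped, and the log2 fold change of cKO over control was 0.18 ± 0.09 (edgeR adjusted p = 1). In non-stimulated cells it was that of Eif1, at 0.114, with 384, 444 and 433 CPM in cKO and 491, 459.8 and 566 CPM in control cells. All 3 cKO libraries were lower, with a log2 fold change of -0.27 ± 0.16 (edgeR adjusted p = 1). Eif3l also lay lower in all 3 non-stimulated cKO libraries and Eif4a2 higher in all 3, where 3.5% and 4.37% of all genes had cKO libraries all lower and all higher.

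**Figure D5:**
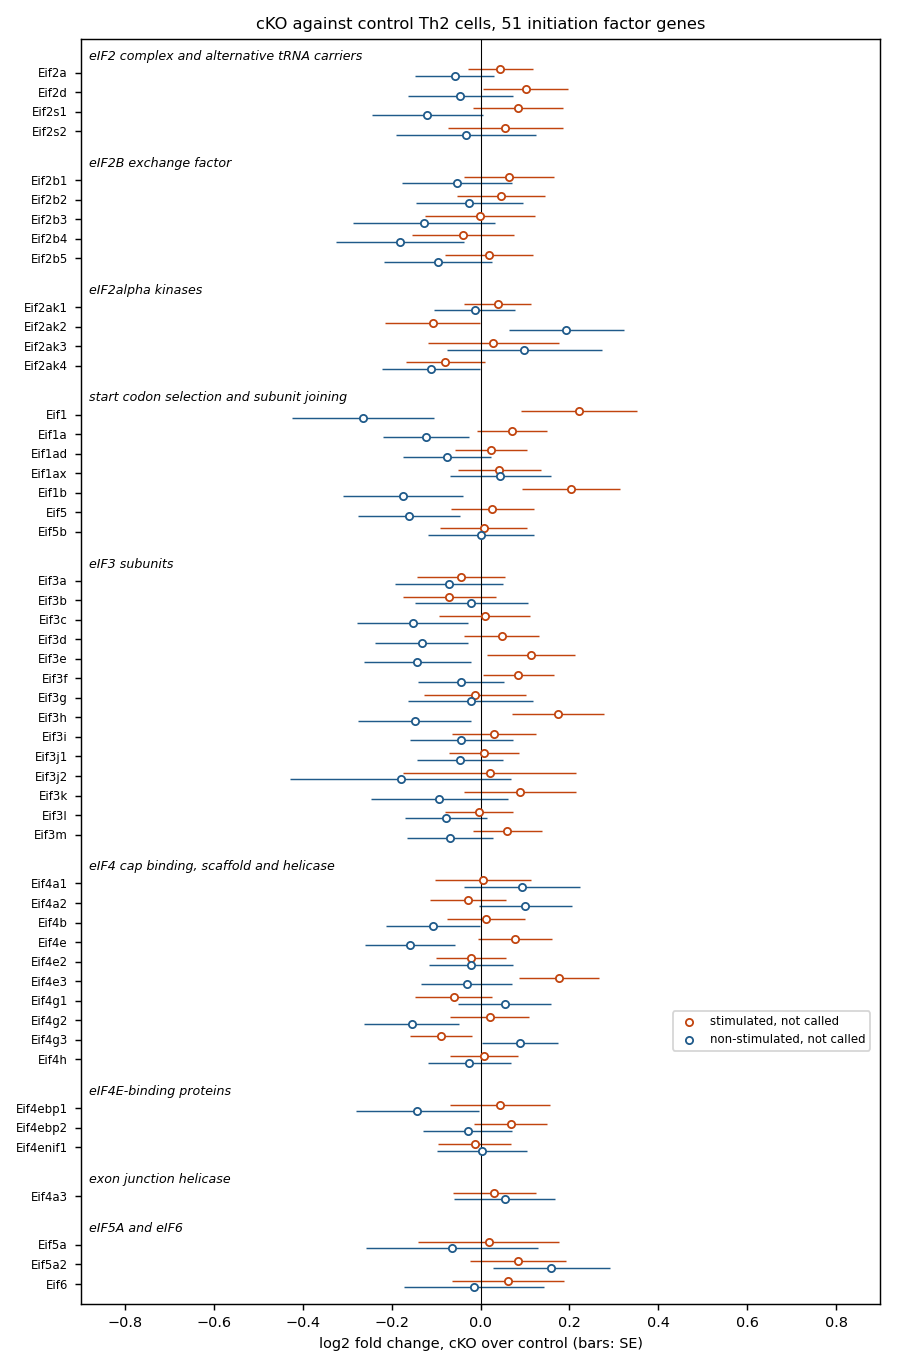
Log2 fold change of cKO over control cells (x axis) for the 51 tested genes, grouped by role, in stimulated cells (upper point of each pair) and non-stimulated cells (lower point). Bars are standard errors, and all points are open because none passed an adjusted p under 0.05. Values run from -0.11 to 0.22 in stimulated and from -0.27 to 0.19 in non-stimulated cells.

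The stimulation response was compared between the genotypes by the interaction term of the same model. No member was called, where 0% of all genes were, and DESeq2 called 0 as well. Unadjusted p was under 0.05 for 2 of 51 members, beside 3.87% of all genes. These were Eif1, with a difference in log2 response, cKO minus control, of 0.49 ± 0.21 (edgeR unadjusted p = 0.0302), and Eif1b, at 0.38 ± 0.18 (edgeR unadjusted p = 0.045). Both had an edgeR adjusted p of 0.997. Without non-stimulated control library 2, 5 members had an unadjusted p under 0.05 for the interaction, and without non-stimulated control library 3, 0 did. Across genotypes, 33 members rose in both and Eif4e3, Eif4ebp2 and Eif2ak3 fell in both. In edgeR with all libraries, Eif1, Eif3e, Eif3h and Eif5a were called higher in cKO cells alone, Eif2ak2 lower in cKO cells alone, and Eif3f lower in control cells alone, without a called difference between the genotypes for any of them. The settings given above for Eif1, Eif3e, Eif5a and Eif3f brought the other genotype under the threshold as well or in its place. The remaining 9 were called in neither.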

How the data were processed

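RNA of Th2 cells was sequenced in 15 ribosome-depleted stranded total RNA libraries, per the labels' protocols. Reads were handled with cutadapt 3.4, STAR 2.7.9a and Salmon 1.10.1 on GRCm39, per the submitters' processing notes, which do not give the order or the strand setting. The authors deposited 2 tables, of estimated counts per gene and of TPM per gene. The estimated counts deposited by the authors were rounded to whole numbers and tested with edgeR 4.0.16 (R 4.3.3): TMM scaling, its filter on low counts, a robust quasi-likelihood fit of 4 group means over all 15 libraries, and Benjamini-Hochberg adjustment over 15619 genes. CPM uses the TMM-scaled library sizes. These genes hold at least 99.9% of each library's counts, at 17083680 to 24185331 per library. The TPM values deposited by the authors served for levels between genes and paralog shares, tested by exact permutation. The script was tested on simulated data. DESeq2 1.42.0 and limma 3.58.1 were used for alternatives, beside other scalings, a fit without the filter on low counts, replicate blocks and leaving out each library.

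The members and gene lists were chosen with earlier results of these data known. Values per library are given, in each role, for up to 3 members with the smallest p after stimulation, both genes of each paralog pair and the smallest p between genotypes, and up to 4 genes per other list. Some members were added for calls that changed with a setting. Several genes, among them Eif1, Eif4a1, Eif5a and Eif3j1, have near-identical copies, and the division of their reads is uncertain.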

Additional observations from a re-analysis of the deposited data

Results flagged for a closer look

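Of 116 stimulated groups of 4 or 5 libraries checked over member levels and paralog shares, 8 held a library far from the others of its group. All of these were member levels, and chance flags about 1 in 20 groups. The non-stimulated groups of 3 libraries were not checked. Stimulated cKO library 3 was the high one for 4 genes. It had 273 CPM of Eif2s1, where the other 3 had 223 to 230.2 CPM, and 648 CPM of Eif2s2, where the others had 422 to 424 CPM. It had 509 CPM of Eif3e, where the others had 352 to 378 CPM, and 90.2 CPM of Eif4e2, where the others had 76.0 to 78.2 CPM. This library also had the highest mitochondrial share, 9.43%. Its part in these values was not tested.

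Stimulated control library 1 was high for Eif2b3, at 54.9 CPM beside 41.3 to 44.0 CPM in the other 4, and for Eif4enif1, at 232 CPM beside 181 to 191 CPM. Stimulated control library 4 had 84.1 CPM of Eif2ak2, beside 60.9 to 64.8 CPM. Stimulated control library 3 was low for Eif5, at 369.6 CPM beside 411 to 427 CPM.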

How the results depend on the processing

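The number of members called kept within 1.5 times of its value under every alternative run. Leaving out each library gave 34 to 37 higher and 3 to 4 lower in cKO cells, 30 to 36 higher and 3 to 4 lower in control cells, and 0 in the genotype and interaction comparisons and the paralog shares. For the paralog shares that 0 was nearly fixed in advance, since at these library numbers no test could pass alone after adjustment. With limma on log2(TPM + 1), 25 members were higher and 4 lower in cKO cells, and 35 higher and 3 lower in control cells. Eif1ax in cKO cells turned round to -0.14 on the log2 scale with both pseudocounts on TPM (1 and 0.1). Its TPM was 54.1, 44.4 and 83.5 in non-stimulated cKO libraries 1, 2 and 3. In stimulated cKO libraries 1 to 4 it was 60.3, 66.8, 40.4 and 49.2. Non-stimulated library 3 was thus the highest of these, and the cause of the turn was not tested. Of the values of single called members under the alternatives other than leaving out a library, 27 in cKO and 8 in control cells kept their sign and no longer passed the threshold, besides the pair of Eif1ax values that turned (limma adjusted p = 0.645 and 0.643).

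With the replicate number as a block, 37 members were higher and 4 lower in cKO cells and 34 higher and 3 lower in control cells, and within genotype 36 and 4, and 33 and 3. Deviations of same-numbered stimulated and non-stimulated libraries correlated at 0.08, 0.10 and 0.11 in cKO and at 0.08, -0.14 and -0.20 in control cells. Each of the 3 cKO pairs correlated best with its own number, and in control cells only replicate 1 did. With correlations this weak and no label for the animal, whether the numbers pair the libraries cannot be told. Under the block within genotype Eif4g1 in cKO and Eif3f and Eif5 in control cells passed no longer (edgeR adjusted p = 0.057, 0.0981 and 0.0644), and under the other block Eif3f (0.0513), while Eif5a in control cells passed under both.

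The 22 members with few or no counts were not tested, and the groups of 3 to 5 libraries limit what the genotype comparisons can detect. Some Asb2 RNA also remained in cKO cells. It was at 9.35 to 9.59 CPM when stimulated, against 31.1 to 37.9 CPM in control cells. In non-stimulated cells it was at 12.7 to 22.7 CPM, against 25.6 to 49.7 CPM. Its part in the genotype comparisons was not tested.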
